A study of Mus musculus with 43 samples.

Results

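The fragments described here derive from the arginine tRNAs of the mouse. In each of the 3 count tables of the study, every row named for a tRNA-Arg and classed as a 5′ fragment (tRF_5′), a 3′ fragment (tRF_3′) or a fragment that reaches neither end of the tRNA (tRF_other) was taken, which gave 57 of 5364 counted features, beside 597 such rows of other amino acids. The 57 rows cover 19 isodecoders, tRNAs that share an anticodon and differ elsewhere in their sequence. There were 3 isodecoders with the anticodon ACG, 3 with CCG, 4 with CCT, 4 with TCG and 5 with TCT, each with 1 row per fragment type. All 57 rows were listed and counted in all 3 tables. In the test of single isodecoder rows, 57 of 57 passed the filter on low counts in the tissue table, 55 in the fluid table and 54 in the sperm table. The rows that did not pass were the tRF_3′ and tRF_other of TCT-4 in fluid and sperm, and the tRF_5′ of CCT-3 in sperm.

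A transfer RNA decodes mRNA codons with its anticodon and carries the matching amino acid at its 3′ end. Cleavage in or near the loops of a mature tRNA leaves fragments, and RNases of the RNase A family, such as angiogenin, are known to make such cuts, leaving phosphate groups on the 3′ ends of the products. In the male tract, fragments of tRNAs are abundant in the epididymis, in its lumen and in sperm, which acquire small RNAs while they pass from the caput through the corpus to the cauda, the segment where sperm are stored.

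The study asked whether the loss of 4 secreted members of the RNase A family alters small RNAs of the epididymis. The paper describes these 4 as noncanonical members without the catalytic residues of the family. It saw no cutting of tRNA by the recombinant proteins in vitro. Small RNAs were sequenced from FVB males aged 8 to 12 weeks that were wild type (WT) or carried a homozygous CRISPR deletion of the Rnase9-12 cluster on chromosome 14 in the whole body (KO), and all RNA was pretreated with polynucleotide kinase (PNK), which makes ends carrying phosphates accessible to library preparation. Epididymis tissue was profiled by ARM-seq, a ligation-based method, in 17 libraries (3 per segment and genotype, but 2 for KO corpus), whereas luminal fluid depleted of sperm and vesicles (18 libraries, 3 per segment and genotype) and cauda sperm (4 WT and 4 KO libraries) were profiled by OTTR-seq, in which a reverse transcriptase adds both adapters during cDNA synthesis. Each fluid or sperm library pooled RNA of 3 mice. Pooling of tissue was not stated. Transcripts of Rnase9 to Rnase12 were not among the counted small RNAs, so the genotype could not be checked in these files.

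Total counts ranged from 30142156 to 249732714 per tissue library, from 1948718 to 12320922 per fluid library and from 1134840 to 62128314 per sperm library, of which Arg fragments took 14680 to 819015, 75763 to 941643 and 2322 to 230676 counts. In all, 7 caput libraries, 1 of WT tissue (replicate 3) and all 6 of fluid, carry an entry naming the cauda section, while their titles name the caput, and they were analysed as caput. The epithelial miRNA list (7 of 7 members) and the smooth muscle list (6 of 7, Mir145b at 0) were detected in tissue, where leukocyte and red blood cell miRNAs summed to at most 0.195 and 0.0538 CPM (counts-per-million, the count of a feature relative to that of its whole library). Of the sperm libraries, WT replicate 4 stood apart, with low values of nearly all Arg fragments. Its epithelial miRNAs, at 39.0 CPM, were above the 20.0 to 28.8 CPM of the KO libraries. Its smooth muscle miRNAs, at 19.9 CPM, were just above the KO range of 8.23 to 19.7 CPM. Its leukocyte miRNAs, at 5.06 CPM, were below the KO range of 6.18 to 11.1 CPM, and its other lists lay within the KO range. Libraries deeper than 10000000 counts (WT replicate 1 and KO replicates 1 to 3) and the 4 shallower ones differed widely in depth. The genotype tests of sperm are given with and without both distinctions.

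Many Arg rows hold the same reads. In fluid, 22 of the 57 rows fell into 8 sets whose counts differed by less than 1% of their total, and in sperm 20 rows fell into 8 sets. The 3 ACG tRF_5′ rows were 1 such set in both tables, as were the tRF_5′ of CCT-1, CCT-2 and CCT-4 and the tRF_5′ of TCT-2, TCT-3 and TCT-5. In 3 sets of both tables rows of CCG and TCG held the same counts, for example the tRF_5′ of CCG-1, CCG-2 and TCG-1, so that the values of CCG and TCG in fluid and sperm are not independent of each other. In tissue, 12 rows fell into 6 sets, none of which crossed anticodons. Values below are therefore sums over isodecoders for each anticodon and fragment type (15 sums), given in CPM scaled by TMM, a factor per library that aligns most features between libraries, and a sum can count a shared read more than once. The arginine tRNA genes of the RefSeq annotation number 24 (6 ACG, 3 CCG, 5 CCT, 5 TCG and 5 TCT), with 8 on chromosome 13 and 5 on chromosome 11, but the isodecoder names cannot be assigned to single genes from the files used here. A feature was called changed at an adjusted p below 0.05 and an absolute log2 fold change above 1, by the quasi-likelihood test of edgeR, p-values being adjusted after Benjamini-Hochberg over all features of a table.

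The fragment types made up different parts of the Arg counts in the 3 kinds of sample. In tissue, tRF_other held 55.04% to 69.9% of Arg fragment counts as group means, tRF_3′ 27.9% to 42.4% and tRF_5′ only 2.19% to 3.25%. With the most counted isodecoder of each anticodon and type in place of the sums, which leaves out most repeated counting, tRF_other held 41.6% to 57.5% and tRF_3′ 40.6% to 56.3%, and tRF_3′ was then the larger in WT corpus tissue (49.7% against 47.8%), WT cauda tissue (56.3% against 41.6%) and KO cauda tissue (53.5% against 43.6%). In WT fluid, tRF_5′ held 63.4% ± 9.06 (SD, n = 3) in the caput, 39.2% ± 7.69 in the corpus and 24.7% ± 16.1 in the cauda, while tRF_3′ held 32.7% ± 8.79, 44.6% ± 10.6 and 67.3% ± 15.3 and tRF_other 3.92% ± 0.762, 16.2% ± 2.92 and 8.00% ± 3.39. With the most counted isodecoder alone, tRF_5′ held 55.4%, 30.8% and 18.7% in these segments and tRF_3′ 40.5%, 54.3% and 74.3%. In WT sperm the group means were 35.6% ± 11.9 tRF_5′, 32.4% ± 8.82 tRF_3′ and 32.1% ± 17.5 tRF_other (n = 4). WT replicate 4 alone held 58.2% tRF_other, and the medians of the 4 libraries were 37.0%, 33.0% and 23.8%. With the most counted isodecoder alone, the group means of WT sperm were 34.1% tRF_5′, 35.7% tRF_3′ and 30.2% tRF_other. Tissue was sequenced with another method than fluid and sperm, so these values stand side by side without a test.

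**Figure D1:**
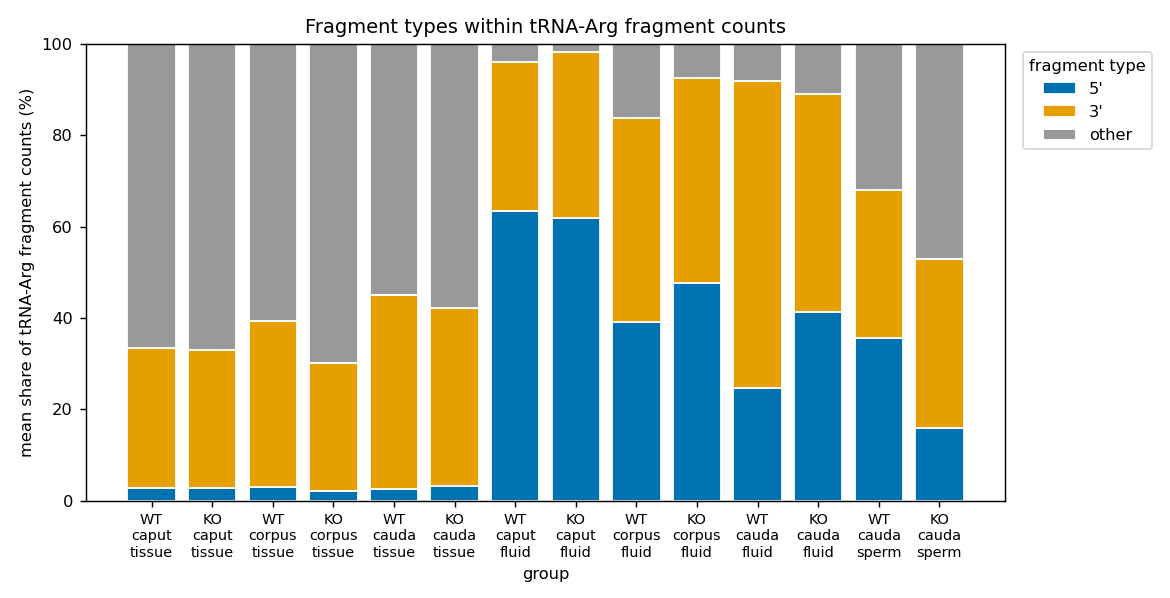
Mean share of tRNA-Arg fragment counts (%) held by 5′, 3′ and other fragments in each of the 14 groups, as stacked bars. Counted as sums over isodecoders, other fragments fill most of each tissue bar (55.04% to 69.9%, but 41.6% to 57.5% with the most counted isodecoder alone), 5′ fragments most of the caput fluid bars, and 3′ fragments most of the WT cauda fluid bar.

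The anticodons contributed unevenly. ACG, whose tRNA reads arginine codons that begin with CG, other than CGG, through a modified first anticodon base, held 30.4% to 38.6% of Arg counts in tissue, 38.4% to 49.5% in fluid and, as group means, 23.9% in WT and 19.6% in KO sperm. TCT, which reads AGA codons, held 26.8% to 35.9% in tissue, 12.4% to 18.7% in fluid and 10.3% and 8.27% in WT and KO sperm. TCG held 8.44% to 12.4% in tissue, 10.5% to 17.9% in fluid and 27.1% and 36.2% in WT and KO sperm. CCT, which reads AGG codons, held between 12.1% and 21.1% in every group. CCG held 4.52% to 6.31% in tissue, 8.58% to 15.5% in fluid and 17.6% in both WT and KO sperm. These values depended on how shared reads were counted. With the most counted isodecoder alone CCG held 9.15% to 11.8%, ACG 40.6% to 47.8% and TCT 18.8% to 25.3% in tissue. TCG, at 6.46% to 9.64%, was then below CCG in every tissue group but KO corpus. In fluid TCG then held 9.80% to 12.5% and CCG 10.4% to 20.1%. In sperm TCG then held 23.2% in WT and 27.7% in KO, CCG 22.6% and 26.6%, and ACG 24.5% and 23.6%. In WT caput fluid, over the summed rows, 78.2% ± 7.12 of ACG counts were tRF_5′ against 42.9% ± 10.7 of TCT counts (n = 3). In WT corpus fluid TCG had the largest summed share of tRF_other, at 49.4% ± 5.02 of its counts. The tRF_other made up 4.21% ± 0.879 of ACG counts there. The ACG tRF_5′ rows held the same counts, as nearly did the tRF_other of TCG-2, TCG-3, TCG-4 and CCG-1, so these shares count reads repeatedly. As single rows over WT fluid of all segments, TCG-1 tRF_other averaged 712 CPM, CCG-1 680 CPM and ACG-1 456 CPM. In tissue, ACG was counted mainly as tRF_3′ (68.7% to 79.8% of its counts over groups) and CCT mainly as tRF_other (78.2% to 87.8%), both over the summed rows. The 63 comparisons of shares between WT and KO (9 shares in 7 comparisons, 2-sided exact permutation tests) gave no unadjusted p below 0.05 and a smallest adjusted p of 0.467. With 3 libraries against 3 the test cannot go below 0.1, with 3 against 2 below 0.2 and with 4 against 4 below 0.0286.

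The annotated genes are 73 bp long, and 74 to 87 bp for TCT with its introns, so levels of the anticodons were set side by side without a correction for length. In WT caput tissue TCT tRF_other was highest at 654 ± 146 CPM (SD, n = 3), followed by ACG tRF_3′ at 528 ± 89.6 CPM, and these neighbours overlapped. As single rows, ACG-3 tRF_3′ (272 ± 54.7 CPM) stood above TCT-3 tRF_other (158 ± 32.6 CPM), the highest TCT row of that type. CCT tRF_other (265 ± 42.1 CPM), ACG tRF_other (231 ± 51.4 CPM) and TCG tRF_other (214 ± 66.9 CPM) came next and did not differ beyond their spread. The tRF_5′ of tissue were low, from 1.49 ± 0.237 CPM for TCG to 42.7 ± 27.8 CPM for TCT. In WT caput fluid the order was different, with ACG tRF_5′ at 29205 ± 8314 CPM above the other 14 sums, ACG tRF_3′ second at 7347 ± 955 CPM and TCT tRF_3′ at 6195 ± 875 CPM. The ACG tRF_5′ sum adds 3 rows with the same counts, so it counts the same reads repeatedly. As single rows averaged over WT fluid of all segments, ACG-3 tRF_3′ (5641 CPM) was above each ACG tRF_5′ row (5081 CPM). The lowest sum of caput fluid was CCT tRF_other at 126 ± 78.1 CPM. In WT cauda fluid ACG tRF_3′ (13612 ± 3186 CPM) stood above CCG tRF_3′ (4897 ± 1561 CPM) and ACG tRF_5′ (4886 ± 2964 CPM). In WT sperm the highest sums were ACG tRF_3′ (438 ± 292 CPM, n = 4), ACG tRF_5′ (393 ± 285 CPM) and TCG tRF_other (372 ± 127 CPM), whose ranges overlapped.

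Within the sums, single isodecoders contributed unequally. In WT fluid the 3 ACG tRF_5′ rows averaged 5081 CPM each, the ACG-3 tRF_3′ 5641 CPM and the TCT-1 tRF_3′ 3083 CPM, the last being 65.9% of the TCT tRF_3′ sum. ACG-1 supplied 86.4% of the ACG tRF_other sum and CCG-1 82.4% of the CCG tRF_other sum, whereas the highest TCG tRF_other row, TCG-1, averaged 712 CPM. CCG-3 held the highest CCG tRF_3′ row in WT fluid (2613 CPM, 70.4% of the sum) and in WT tissue (27.6 CPM, 72.4%). Of the CCT rows, the tRF_3′ of CCT-1 was highest in WT fluid at 1836 CPM, and in WT tissue CCT-4 led both tRF_other (68.0 CPM) and tRF_3′ (36.1 CPM). In WT tissue the highest rows were the tRF_3′ of ACG-3 (253 CPM) and ACG-1 (212 CPM), and the tRF_other of TCT-3 averaged 120.3 CPM. In WT sperm the tRF_3′ of ACG-1 (203 CPM) and ACG-3 (170.3 CPM) were highest, and the shared tRF_5′ rows of CCG-1, CCG-2 and TCG-1 averaged 111 CPM each. By WT means TCT-4 was the lowest TCT isodecoder for each fragment type in every table, its tRF_other averaging 0.317 CPM in tissue and 0.136 CPM in fluid. Its tRF_5′ had group means of 0.671 to 1.72 CPM in tissue and 11.7 to 23.8 CPM in fluid. Rows of other anticodons had lower tRF_5′ in WT tissue, for example TCG-4 at 0.175 CPM.

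The loss of Rnase9-12 was accompanied by lower Arg fragments in corpus fluid. The 5 tRF_other sums fell 3.66- to 4.64-fold in the fit, 3 of the 5 tRF_3′ sums fell, and no tRF_5′ sum passed the test. In all, 8 of 15 Arg sums were lower in KO and 0 were higher, where 5.03% of all 1611 features tested were lower and 12.0% higher (edgeR quasi-likelihood, Benjamini-Hochberg). The median log2 fold change was -1.15 over the Arg sums, -0.67 over the 134 sums of other amino acids (30 lower) and 0.10 over all features. Libraries of such pooled fluid cannot tell fewer contributing cells from less RNA released per cell, and p-values measure the spread between these libraries, which may be technical.

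The tRF_other of tRNA-Arg-ACG was counted at 1669.8, 507 and 848 CPM in the 3 WT libraries and at 252, 146 and 259 CPM in the 3 KO libraries (log2 fold change -2.20 ± 0.44 SE, adjusted p = 0.00465). The tRF_other of tRNA-Arg-TCT was at 1761, 724 and 1021 CPM in WT and 267, 188 and 299.8 CPM in KO (-2.22 ± 0.44, adjusted p = 0.00465). For both, the genotypes were fully separated, with the KO libraries below, and WT replicate 1 was the highest of the 6. The tRF_other of tRNA-Arg-TCG, the highest of the 5 sums but one that counts shared reads repeatedly, was at 8054, 3025 and 4695 CPM in WT and 1379.8, 956 and 1298 CPM in KO (-2.12 ± 0.45, adjusted p = 0.00465). That of tRNA-Arg-CCG, which shares reads with TCG, was at 2498, 935 and 1438 CPM against 418, 291 and 443 CPM (-2.08 ± 0.44, adjusted p = 0.00465). That of tRNA-Arg-CCT was at 656, 442 and 487 CPM in WT and 146, 107 and 181 CPM in KO (-1.87 ± 0.46, adjusted p = 0.00762). None of these 3 sums overlapped between genotypes either, and all 5 tRF_other sums passed the test under each of the 8 other settings compared and with each library left out. The number of all Arg sums called lower was 5 without KO replicate 3 and 5 to 8 over the libraries left out.

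**Figure D2:**
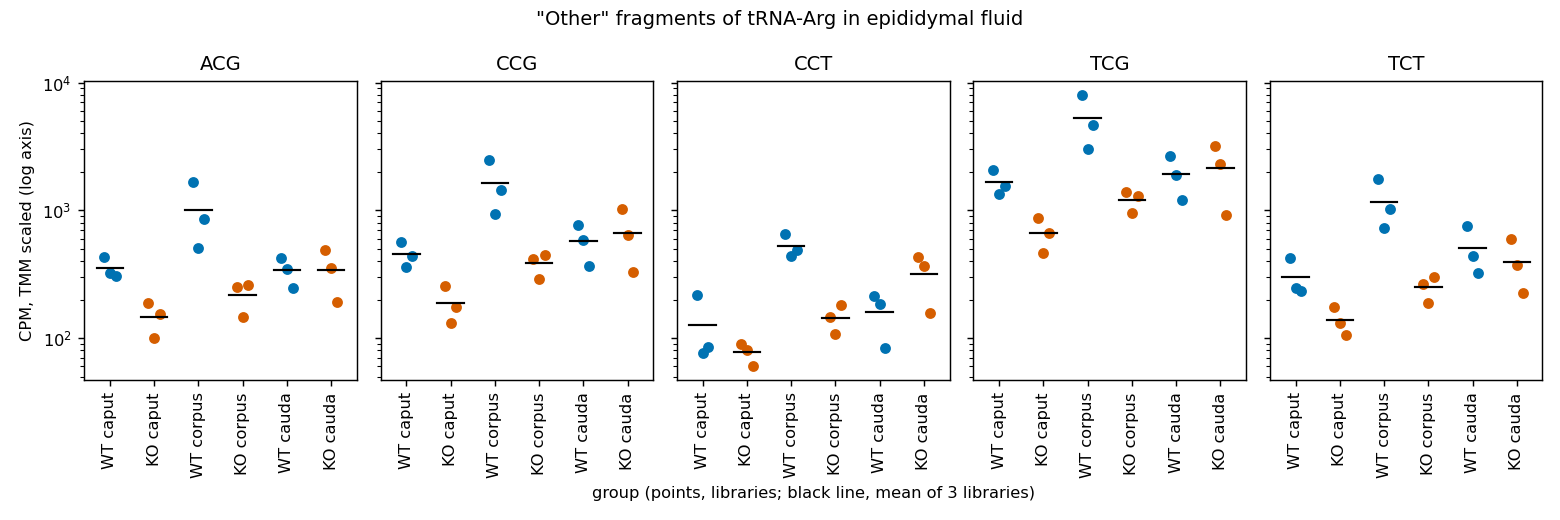
Level (CPM, TMM scaled, log axis) of the tRF_other sum of each Arg anticodon in fluid of the caput, corpus and cauda. Points are libraries (WT blue, KO orange, 3 per group) and black lines group means. In the corpus all 3 KO points of each anticodon lie below all 3 WT points, and in the cauda the genotypes overlap.

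Among the tRF_3′ of corpus fluid, ACG stood at 14755, 8174 and 6048 CPM in WT and 3977, 2994 and 3662 CPM in KO (log2 fold change -1.45 ± 0.40 SE, edgeR adjusted p = 0.0173). CCG tRF_3′ stood at 5454, 4572 and 3061 CPM in WT and 2282, 1539 and 1475 CPM in KO (-1.31 ± 0.34, adjusted p = 0.0117), and TCG tRF_3′ at 4524, 2520.4 and 1981 CPM against 1607, 1208 and 1245 CPM (-1.15 ± 0.39, adjusted p = 0.0456). The KO libraries of these 3 sums were all below the WT libraries. The calls were less stable than those of tRF_other, since ACG tRF_3′ missed the threshold without KO replicate 2, KO replicate 3 or WT replicate 1, CCG tRF_3′ missed it without KO replicate 3, and TCG tRF_3′ missed it under 9 alternatives. CCT and TCT tRF_3′, at -0.30 and -0.38, overlapped between genotypes (adjusted p = 0.515 and 0.433).

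The tRF_5′ of corpus fluid had log2 fold changes from -1.03 for CCT to -0.39 for TCT. CCT tRF_5′ was at 6773, 2387 and 3332 CPM in WT and 1961, 1756 and 2386 CPM in KO, with all WT libraries above all KO libraries by a narrow margin (edgeR adjusted p = 0.119). ACG tRF_5′, the most abundant Arg sum of caput fluid, was here at 18954, 7168 and 11072 CPM in WT and 7384, 6073 and 8924 CPM in KO (-0.73 ± 0.43, adjusted p = 0.236), and the genotypes overlapped. In total, 9 of 15 sums had all KO libraries below all WT libraries, which held for 13.5% of all features. The share of tRF_other within Arg counts was 13% to 18.6% in the WT and 6.65% to 8.30% in the KO libraries of corpus fluid.

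Among the sums of other amino acids in corpus fluid, 21 of 46 tRF_other were lower in KO (median log2 fold change -1.01), 6 of 44 tRF_5′ (-0.61) and 3 of 44 tRF_3′ (-0.62), beside medians of -2.12, -0.77 and -1.15 for the Arg tRF_other, tRF_5′ and tRF_3′. Whether Arg differs from the others was not tested. At the level of single isodecoders, 23 of 55 Arg rows were lower and 0 higher (6.23% and 13.4% of all features), 16 of them tRF_other and 7 tRF_3′. The smallest p belonged to the tRF_other of TCT-1, at 570.4, 285 and 368 CPM in WT and 95.0, 73.2 and 123 CPM in KO (log2 fold change -2.07, edgeR adjusted p = 0.00235). It was followed by the tRF_other of ACG-1 (-1.98, adjusted p = 0.00244) and TCG-3 (-1.86, adjusted p = 0.00409), which did not overlap between genotypes either. The number of rows called lower was 10, 11, 12 and 15 without KO replicate 2, WT replicate 1, KO replicate 1 and KO replicate 3.

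Other measures moved with genotype in corpus fluid. The epithelial miRNAs (7 of 7 detected) summed to 131 to 199 CPM in KO and 37.9 to 78.8 CPM in WT, those of testis and sperm (3 of 5 detected, Mir449b and Mir449c at 0) to 12.8 to 15.4 and 3.58 to 9.06 CPM, and those of leukocytes (3 of 4, Mir142hg at 0) to 20.0 to 79.9 and 13.6 to 19.6 CPM. Smooth muscle miRNAs (138 to 311 CPM in KO, 98.5 to 175 CPM in WT) and red blood cell miRNAs (18.4 to 120.1 and 19.0 to 50.2 CPM) overlapped. The KO libraries were shallower, at 1948718 to 3373869 counts against 3989262 to 10172577 in WT. The part of these differences in the Arg result was not tested. With TMM computed from features other than tRNA and rRNA, the median log2 fold change of all features was -0.56 instead of 0.10, and with library size alone it was 0.35. Of the Arg sums, 12 and 7 were then lower. The share of all features lower under these scalings is not given here, and the 5.03% of all features belongs to the main fit.

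In caput fluid no Arg sum passed the test between genotypes (0 of 15, against 0.0% of all features in each direction), with 4 sums at an unadjusted p below 0.05 by edgeR and 0 called by DESeq2. These 4 were tRF_other. ACG tRF_other was at 433, 325 and 306 CPM in WT and 187, 99.7 and 154 CPM in KO (log2 fold change -1.27, adjusted p = 0.282), and TCG tRF_other at 2081, 1348 and 1547 CPM and 873, 464 and 668 CPM (-1.31, adjusted p = 0.282). All KO libraries of ACG, CCG, TCG and TCT tRF_other lay below all WT libraries, a separation that 13.1% of all features had. The tRF_5′ sums ranged from -0.30 to 0.23 and the tRF_3′ sums from -0.13 to 0.29 on the log2 scale, and the median over the 15 sums was -0.07. Epithelial miRNAs were at 335 to 412 CPM in KO and 142 to 243 CPM in WT caput fluid, and leukocyte miRNAs at 13.8 to 19.8 and 8.38 to 11.3 CPM.

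In cauda fluid no Arg sum passed the test between genotypes (0 of 15, where 0.0% of all features were lower and 0.248% higher), edgeR gave an unadjusted p below 0.05 for 3 sums with lower and 1 with higher KO values, and DESeq2 called 0. TCG tRF_other was at 2674, 1886 and 1200.1 CPM in WT and 3189, 2323 and 916 CPM in KO cauda fluid (log2 fold change 0.16, and -0.26 to 0.31 over the settings compared), and CCT tRF_other at 214, 185 and 83.3 and 428, 367 and 156 CPM (0.98, adjusted p = 0.406). Both overlapped between genotypes. The 3 sums at an unadjusted p below 0.05 with lower KO values were the tRF_3′ of ACG, CCG and TCG. ACG tRF_3′ was at 15008, 9966 and 15862 CPM in WT and 5362, 4091 and 11665 CPM in KO (-0.95, adjusted p = 0.384), and CCG tRF_3′, at 6174, 3157 and 5360.4 and 2979, 2556 and 2936 CPM, was the sum without overlap, which 1.55% of all features showed in that direction. ACG tRF_5′, at 2306, 8124 and 4228 CPM in WT and 5533, 10450.2 and 9968 CPM in KO, had a log2 fold change of 0.82 with an unadjusted p = 0.0667 in the edgeR fit.

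The genotype difference of corpus fluid was set against that of cauda fluid in the same fit. Of the 15 Arg sums, 4 had a more negative log2 fold change in the corpus than in the cauda by the test of the difference itself, where 2.3% of all features were called in that direction and 3.35% in the other. These were the tRF_other of ACG (-2.23 ± 0.60 SE), CCG (-2.29 ± 0.61), CCT (-2.85 ± 0.64) and TCG (-2.28 ± 0.61), each with an edgeR adjusted p of 0.0359. TCT tRF_other, at -1.86, had an adjusted p = 0.0675. The difference was negative for 15 of 15 sums, with a median of -1.02. Both effects rest on 3 libraries a group, and the number called was 0 without KO cauda replicate 2, KO corpus replicate 1 or WT corpus replicate 1, was 1 or 2 without KO cauda replicate 1, KO corpus replicate 2 or 3, WT cauda replicate 2 or 3 or WT corpus replicate 2, and was at most 5 over all libraries left out.

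**Figure D3:**
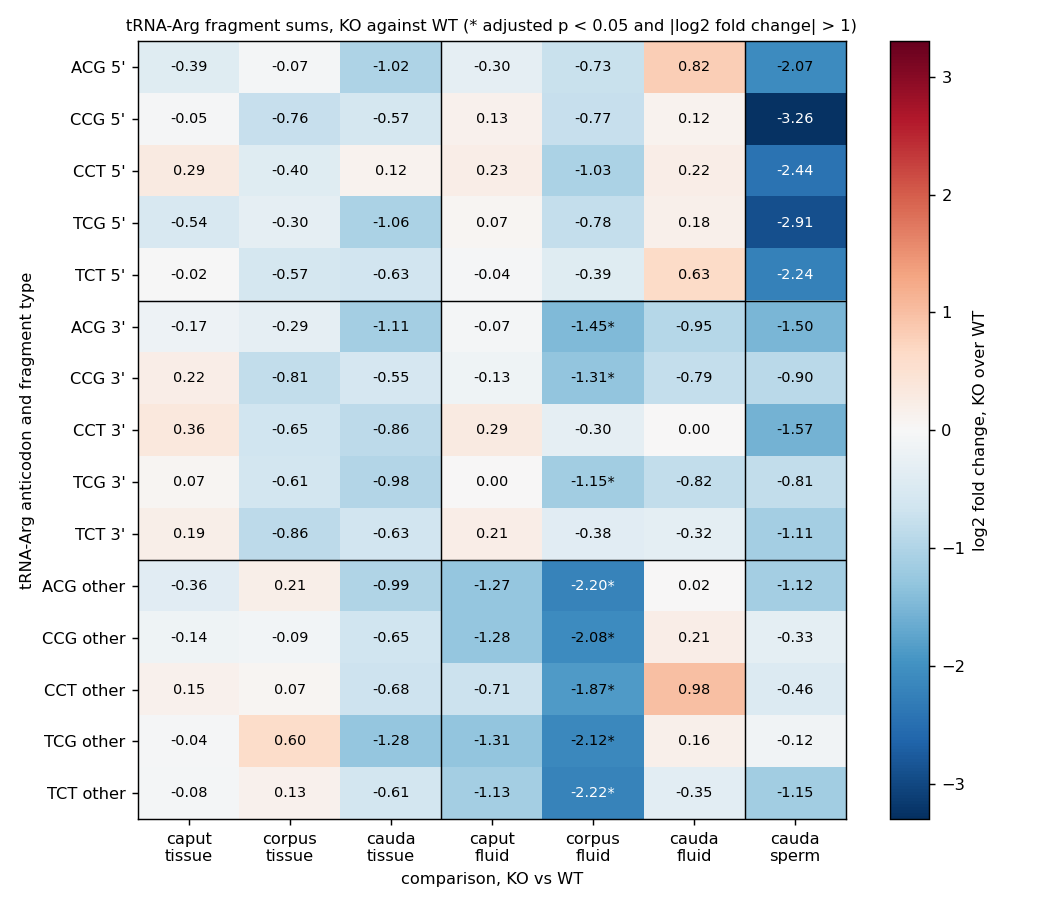
Log2 fold change of KO over WT for the 15 tRNA-Arg sums (rows) in the 7 comparisons (columns), as a colour scale. An asterisk marks an adjusted p below 0.05 with an absolute log2 fold change above 1. The 8 asterisks are all in the corpus fluid column, in the 5 other and 3 of the 3′ fragment rows.

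Along the WT epididymis the Arg fragments of fluid changed by type. From caput to corpus, 6 of 15 sums were higher and 0 lower (7.7% and 6.08% of all features). The 5 tRF_other sums were all among the 6, for example CCT tRF_other, at 216, 76.3 and 85.5 CPM in the caput and 656, 442 and 487 CPM in the corpus (log2 fold change 2.07 ± 0.46 SE, edgeR adjusted p = 0.00654). TCT tRF_other rose by 1.95 (adjusted p = 0.00654), CCG tRF_other by 1.83 (0.00807), TCG tRF_other by 1.66 (0.0140) and ACG tRF_other by 1.51 (0.0227) on the log2 scale. The sixth was CCG tRF_3′ (1.09, adjusted p = 0.0381). Among other amino acids 16 of 46 tRF_other sums were higher. Without WT corpus replicate 1 the number of Arg sums called higher was 2, and without WT caput replicate 2 it was 3. Epithelial miRNAs were at 142 to 243 CPM in WT caput fluid and 37.9 to 78.8 CPM in WT corpus fluid, while those of testis and sperm were at 1.995 to 3.50 and 3.58 to 9.06 CPM and those of leukocytes at 8.38 to 11.3 and 13.6 to 19.6 CPM, all without overlap, and their part in the result was not tested.

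From caput to cauda fluid of WT males, 4 of the 5 tRF_5′ sums were lower. ACG tRF_5′ was at 34628, 33352 and 19633 CPM in the caput and 2306, 8124 and 4228 CPM in the cauda, 5.98-fold lower in the fit and without overlap (log2 fold change -2.58 ± 0.45 SE, edgeR adjusted p = 0.000994). CCT tRF_5′ was at 7477, 5181 and 3604 CPM in the caput and 747, 3329 and 1424 CPM in the cauda (-1.56, adjusted p = 0.0193). TCG tRF_5′ (-1.53, 0.0327) and TCT tRF_5′ (-1.79, 0.00874) passed the test too, and CCG tRF_5′ had an adjusted p = 0.0576. Thus 4 of 15 sums were lower and 1 higher (15.8% and 7.7% of all features), the latter being CCG tRF_3′, at 2048, 1797 and 2322 CPM in the caput and 6174, 3157 and 5360.4 CPM in the cauda (1.25, adjusted p = 0.0116). Among other amino acids 12 of 44 tRF_5′ sums were lower. WT cauda replicate 1 was the lowest library for all 5 tRF_5′. Without it, or without WT caput replicate 3 or WT cauda replicate 3, 1 Arg sum was called lower, and without WT caput replicate 1 it was 2. Beside this, miRNAs of testis and sperm were at 1.995 to 3.50 CPM in WT caput fluid and 15.1 to 31.6 CPM in WT cauda fluid, those of leukocytes at 8.38 to 11.3 and 22.3 to 43.0 CPM, those of smooth muscle at 79.2 to 146 and 152 to 339 CPM, and those of red blood cells at 23.6 to 25.01 and 40.0 to 61.0 CPM. None of these 4 lists overlapped between the segments, epithelial miRNAs did (142 to 243 and 91.1 to 152 CPM), and their part in the result was not tested.

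**Figure D4:**
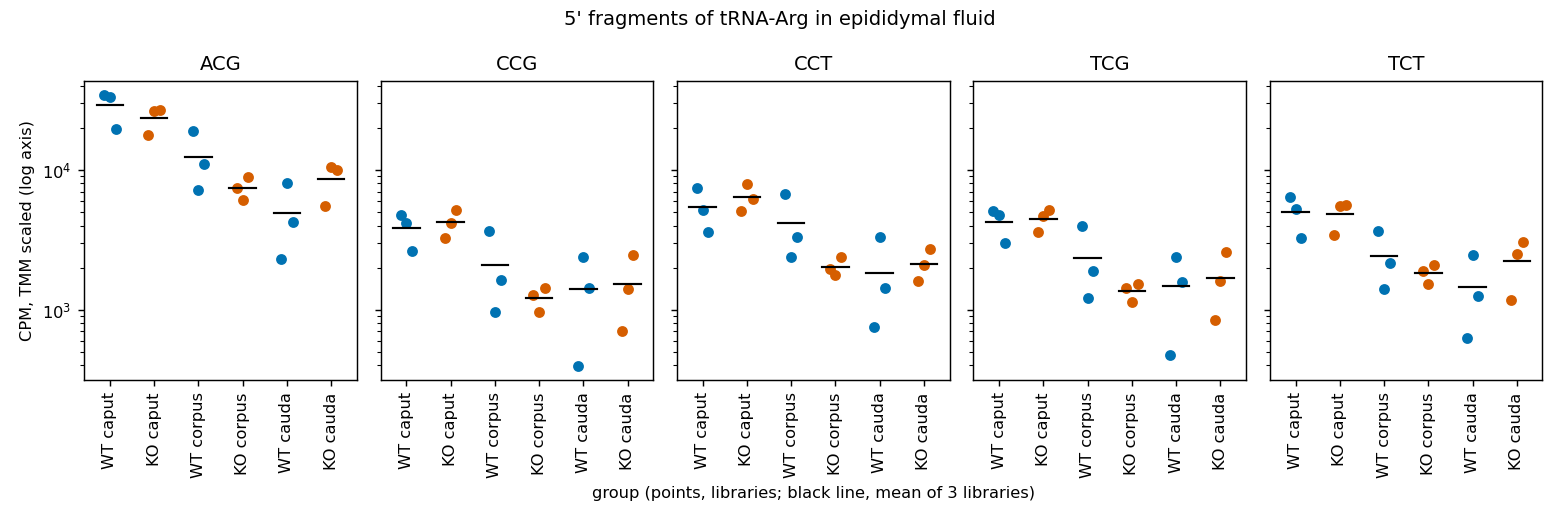
Level (CPM, TMM scaled, log axis) of the tRF_5′ sum of each Arg anticodon in fluid of the caput, corpus and cauda. Points are libraries (WT blue, KO orange, 3 per group) and black lines group means. All WT points of the cauda lie below all WT points of the caput for each anticodon, and the genotypes overlap in most segments.

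In cauda tissue 14 of 15 Arg sums had negative log2 fold changes in KO. By edgeR 0 of 15 sums passed the test (0.956% of all features were lower, 0.0% higher), 5 had an unadjusted p below 0.05, and DESeq2 called 3. The median log2 fold change was -0.68 for Arg, -0.73 for the sums of other amino acids (130 of 135 negative, 1 called lower) and 0.04 for all features. TCG tRF_other was at 143, 149 and 137 CPM in WT and 66.7, 42.7 and 66.8 CPM in KO cauda tissue (log2 fold change -1.28 ± 0.33 SE, adjusted p = 0.0995). ACG tRF_3′ was at 409, 495 and 735 CPM in WT and 255, 151 and 354 CPM in KO (-1.11 ± 0.35, adjusted p = 0.2002), and ACG tRF_other at 107, 108 and 179.7 and 67.1, 39.1 and 92.6 CPM (-0.99 ± 0.32, adjusted p = 0.223). For these sums and for the tRF_5′ of ACG and TCG all KO libraries were below all WT libraries, as for 8.41% of all features. KO replicate 2 was the lowest of the 6 libraries in all 3 sums given here.

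Same-numbered libraries of the cauda tissue deviated together. With the replicate number as a block, 4 sums were called lower, namely the tRF_5′ (-1.06), tRF_other (-1.001) and tRF_3′ (-1.12) of ACG and the TCG tRF_other (-1.28), with a smallest edgeR adjusted p = 0.00674. Without KO replicate 3, 7 sums were called lower. DESeq2 called ACG tRF_other (-1.07), ACG tRF_3′ (-1.19) and TCG tRF_other (-1.38). The share of all features called with the block, without KO replicate 3 or by DESeq2 is not given here. The 0.956% of all features belongs to the main fit, so these counts cannot be set against it. Smooth muscle miRNAs summed to 112 to 222 CPM in WT and 110.5 to 143 CPM in KO cauda tissue.

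In caput tissue the log2 fold changes of the 15 sums lay between -0.54 and 0.36, and in corpus tissue, with 2 KO libraries, between -0.86 and 0.60. In both, 0 sums passed edgeR's test, 0 had an unadjusted p below 0.05 and DESeq2 called 0 (background 0.0% in both directions). In corpus tissue epithelial miRNAs were at 11.1 to 11.3 CPM in KO and 17.3 to 29.3 CPM in WT. Smooth muscle miRNAs were at 25.7 to 30.4 and 46.4 to 91.1 CPM, and leukocyte miRNAs at 0.0664 to 0.0718 and 0.125 to 0.151 CPM. These lists and that of red blood cells were lower in KO without overlap, that of testis and sperm overlapped, and their part was not tested. The difference between the genotype effects of cauda and caput tissue was negative for 15 of 15 sums and called for 0 (0.0% of all features), with 1 at an unadjusted p below 0.05 and 0 called by DESeq2. It was TCG tRF_other (-1.24, adjusted p = 0.885). Between WT segments of tissue, ACG tRF_other fell from 287, 221 and 185 CPM in the caput to 90.3, 105 and 105 CPM in the corpus (-1.21, adjusted p = 0.0180) and TCG tRF_other from 254, 252 and 137 to 84.7, 122 and 91.4 CPM (-1.11, adjusted p = 0.0338), 2 of 15 sums where 2.44% of all features were lower. Neither was called without WT caput replicate 1 or WT corpus replicate 1. WT caput replicate 3, the lowest caput library for both sums, is the tissue library with the entry naming the cauda. Smooth muscle miRNAs were at 21.3 to 42.2 CPM in WT caput tissue and 46.4 to 91.1 CPM in WT corpus tissue, and leukocyte miRNAs at 0.0366 to 0.0934 and 0.125 to 0.151 CPM, both without overlap, and their part in the result was not tested. Between WT caput and cauda tissue 0 of 15 sums passed (7.16% of all features lower, 17.9% higher), with 2 at an unadjusted p below 0.05 and 0 called by DESeq2, and the log2 fold changes ran from -0.81 to 0.95. This fit left out the pairing by replicate number. No sum was called in any of the 9 edgeR and DESeq2 settings compared, the replicate block included. Over these settings the smallest adjusted p was 0.00257 for CCT tRF_3′ and 0.00924 for ACG tRF_other.

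In cauda sperm all 15 Arg sums had negative log2 fold changes in KO, and none passed the test. By edgeR 0 of 15 were called (0.0% of all features in each direction) and 8 had an unadjusted p below 0.05, while DESeq2 called 3. The median was -1.15 for Arg, -0.96 for the sums of other amino acids (128 of 133 negative) and -0.07 for all features. The differences were greatest for the 5 tRF_5′, from -2.07 to -3.26, while the tRF_3′ ranged from -0.81 to -1.57 and the tRF_other from -0.12 to -1.15. CCG tRF_5′ was at 250.4, 402, 471 and 18.4 CPM in WT replicates 1 to 4 and 7.13, 50.0, 40.2 and 21.1 CPM in the 4 KO libraries (log2 fold change -3.26 ± 0.84 SE, adjusted p = 0.204). ACG tRF_5′ was at 581, 284, 665 and 44.1 CPM in WT and 29.6, 177, 124 and 42.5 CPM in KO (-2.07 ± 0.76, adjusted p = 0.300). WT replicate 4 lay among the KO libraries for both, and the other 3 WT libraries lay above all KO libraries.

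CCT tRF_5′ was at 394, 375, 475 and 33.0 CPM in WT and 11.4, 107, 81 and 35.9 CPM in KO sperm (-2.44 ± 0.79, edgeR adjusted p = 0.250). TCT tRF_5′ was at 238, 186, 279 and 25.1 CPM against 9.75, 66.7, 51.0 and 26.1 CPM (-2.24 ± 0.72, adjusted p = 0.250), and TCG tRF_5′, which shares reads with CCG, had a log2 fold change of -2.91 ± 0.79 (adjusted p = 0.204). By contrast, TCG tRF_other, the highest tRF_other sum of sperm, was at 378, 461, 459 and 191 CPM in WT and 368, 370.2, 339.8 and 292 CPM in KO (-0.12, adjusted p = 0.913), and its WT and KO libraries overlapped. No Arg sum was free of overlap in sperm, where 1.34% of all features had all KO libraries below all WT libraries. Of the summed Arg counts, tRF_5′ totalled 1703, 1545, 2283 and 144 CPM in WT and 64.9, 455, 338 and 149.9 CPM in KO, tRF_3′ 1507, 1972, 1412 and 153 and 560.2, 653, 621 and 372 CPM, and tRF_other 928, 1186, 1068 and 414 and 746, 766, 674 and 557 CPM.

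Without WT replicate 4, 9 Arg sums and 27 isodecoder rows were called lower in KO sperm, among them CCG tRF_5′ (-3.59), TCG tRF_5′ (-3.23) and CCT tRF_5′ (-2.76). DESeq2 on all 8 libraries called these 3 sums (-3.302, -2.95 and -2.47). The share of all features called without WT replicate 4 or by DESeq2 is not given here. The 0.0% of all features belongs to the main fit, so these counts cannot be set against it. With the depth class of the library as a term, 0 sums were called and the smallest edgeR adjusted p was 0.576, with a median log2 fold change of -1.76. Among the 4 deep libraries the 3 KO libraries were below the single WT library for 15 of 15 sums (median log2 ratio -1.49, no test). Among the 4 shallow libraries the single KO library was below all 3 WT libraries for 3 sums, ACG tRF_5′, CCT tRF_other and TCT tRF_other (median log2 ratio -1.90 over the 15 sums, no test). Genotype and depth are largely confounded here, with 1 WT library among the deep and 1 KO library among the shallow ones, and their parts in the difference were not tested beyond these values.

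**Figure D5:**
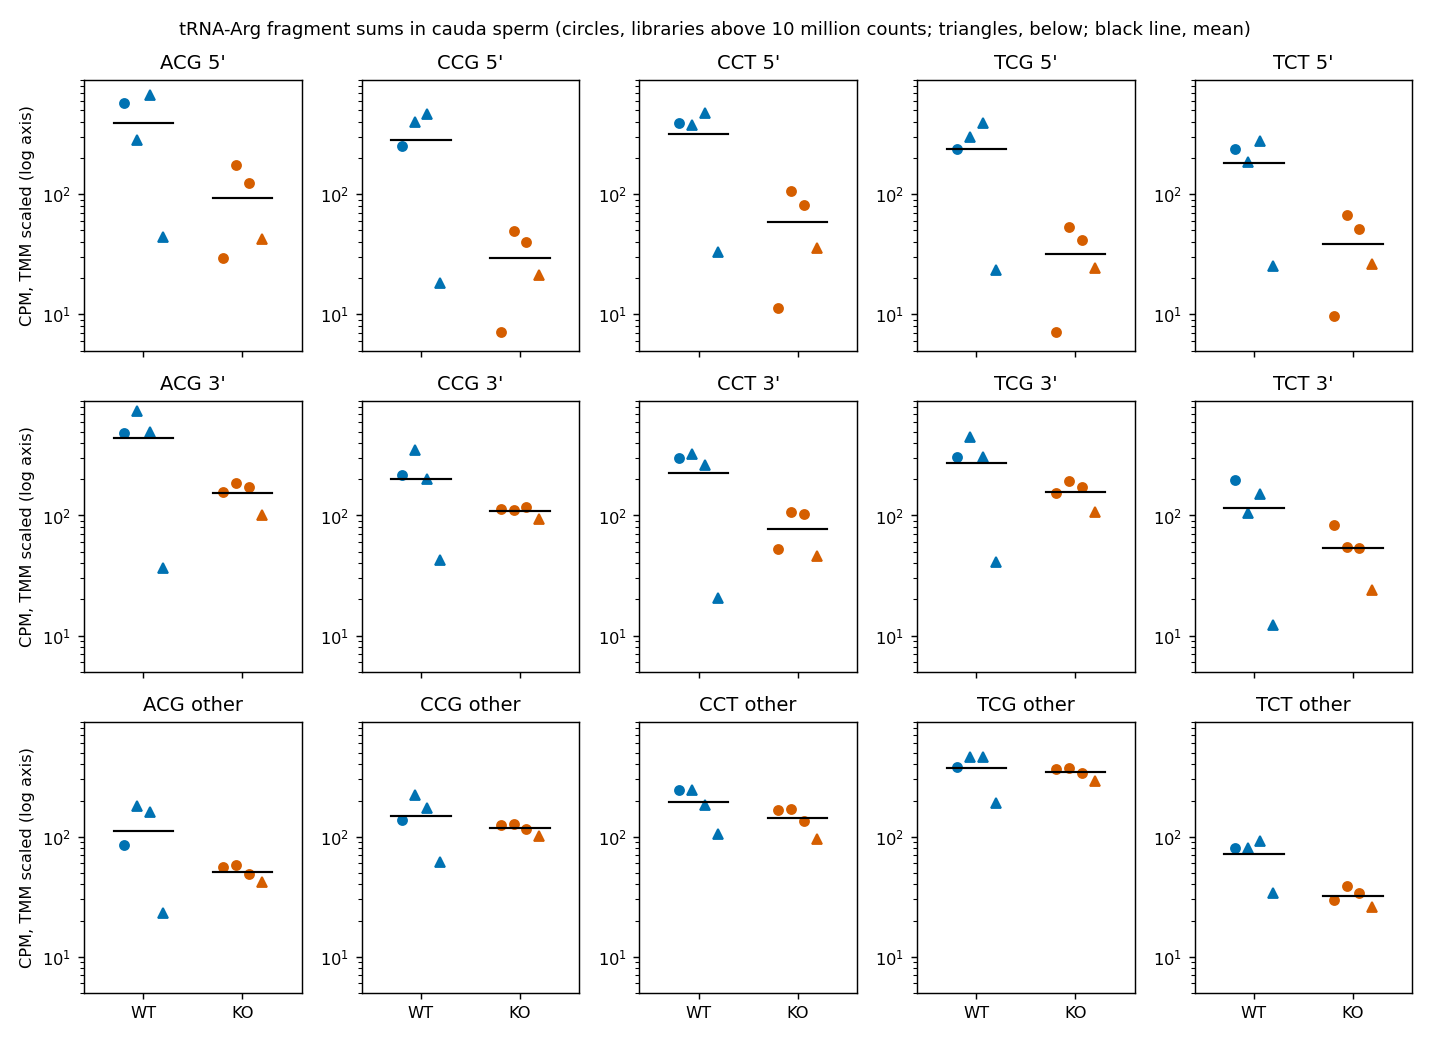
Level (CPM, TMM scaled, log axis) of the 15 tRNA-Arg sums in WT and KO cauda sperm, 1 panel per anticodon and fragment type. Circles are libraries above 10000000 counts, triangles libraries below, and black lines means of 4 libraries. For the 5′ fragments 3 WT libraries lie above all KO libraries and the remaining WT library lies among them.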

How the data were processed

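Per the labels and the study's methods, the authors trimmed reads with cutadapt, removed duplicates by molecular identifier with UMI-tools where these were used, and aligned them with bowtie2 to mm10 and to mature tRNAs of gtRNAdb in a modified tRAX pipeline. They classed a read as full-length when it reached both ends of the tRNA, as a 5′ or 3′ fragment when it reached one end, and as other when it reached neither. Tool versions are not given in the sources used here. The deposited values are raw read counts per feature, 1 table each for tissue, fluid and sperm. Here each table was fitted on its own with edgeR 4.0.16 in R 4.3.3 (glmQLFit and glmQLFTest, TMM scaling, filterByExpr by group with a minimum count of 10 and a minimum total of 15, all groups in 1 fit, Benjamini-Hochberg adjustment over all features of the table), once as deposited and once with every tRNA fragment row summed over isodecoders. CPM used TMM-scaled library sizes.

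The members and the lists of related and marker features were chosen with earlier results of these data known. The text names all 15 Arg sums and, among isodecoder rows, names from the most counted row of each sum in each table (beside the next row in places), the up to 3 called rows with the smallest p per comparison, the rows of TCT-4, and the 3 sums of other amino acids that follow the Arg total most closely. DESeq2 1.42.0, other scalings, no filter, groups fitted alone, a replicate block, the most counted isodecoder, leaving out each library and, chosen after seeing the data, sperm depth class as a term were alternatives. Shares were compared by exact permutation tests (scipy 1.17.1). The fits were tested on simulated counts with known changes.

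Replicate numbers come from the sample titles. Deviations from group means correlated between same-numbered libraries with r = 0.27 to 0.60 in WT and KO cauda tissue, 0.31 to 0.55 in WT corpus and caput tissue and 0.31 to 0.63 in WT cauda and caput tissue, above 0.1 for every pair, and these were taken as paired. The other comparisons were not. The main fits of all comparisons left the pairing out, and the replicate block was used only as an alternative setting. No replicate pair agreed within sampling noise (chi-square per degree of freedom at least 26.5). Depth limits single values through counting error only for the rarest rows, and PCR and pooling were not separated.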

Additional observations from a re-analysis of the deposited data

Results flagged for a closer look

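The share of tRF_other within the Arg counts of WT cauda sperm had 1 library apart from the other 3, WT replicate 4 at 58.2%, against a median of 23.8%. Its gap to the nearest library was 0.922 of the range of the group, above Dixon's critical value for 4 libraries. Of 48 groups of values checked 1 was found in this way, and chance gives about 1 in 20. The same library had the highest epithelial miRNA sum of the WT sperm libraries (39.0 CPM, against 6.24 to 21.5 CPM). It also had the highest smooth muscle miRNA sum (19.9 CPM, against 4.23 to 13.3 CPM), while its other lists lay within the range of the other WT libraries. The part of these in its fragment shares was not tested.

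The genotype difference of 4 Arg sums differed between corpus and cauda fluid by edgeR's test of the difference of log2 fold changes. The corpus value was more negative by -2.23 for ACG tRF_other, -2.29 for CCG tRF_other, -2.85 for CCT tRF_other and -2.28 for TCG tRF_other, with 3 libraries in each of the 4 groups. All 4 had an adjusted p of 0.0359. Of the 9 settings compared, the reported one included, ACG, CCG and TCG tRF_other were called in 3 and CCT tRF_other in 6, and with each library left out in turn 0 to 5 Arg sums were called. CCG and TCG share reads and do not count as separate evidence.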

How the results depend on the processing

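Of 519 counts of called features recomputed under other settings, 453 stayed within 1.5 times the reported count, and of 303 recomputed fold changes of 21 selected results none changed sign, 13 lost the call and 23 gained it. Uncalled fold changes beyond these 21 could change sign, as in KO against WT cauda fluid for TCG tRF_other (-0.26 to 0.31) and ACG tRF_other (-0.44 to 0.17). No cause of a change was tested. Shares of all features called are given above for the main fit only, so counts under other settings stand without such a share. In KO against WT, DESeq2 called 3 sums and 8 isodecoder fragments lower in cauda tissue, 3 isodecoder fragments in cauda fluid, and 3 sums and 13 fragments in sperm. In corpus fluid the 23 fragments became 44 with TMM from features other than tRNA and rRNA and 14 with library size alone. For WT corpus against caput, the 2 tissue sums called lower became 0 with library size alone, and the 0 fluid sums called lower became 1 with DESeq2, 1 with its size factors and 2 with these groups fitted alone. For WT cauda against caput fluid, the 4 sums called lower became 2 with TMM from other features, 2 with the most counted isodecoder and 2 without the filter, and the 1 called higher became 4, 4 and 2 under these, 4 with DESeq2, 3 with its size factors and 0 with the groups alone. The 4 differences between corpus and cauda fluid became 1 with DESeq2's size factors, 0 with the groups alone, 0 with library size alone, 1 with the most counted isodecoder and 0 without the filter.

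With the replicate number as a block, cauda tissue gave 4 sums and 4 isodecoder fragments lower in KO. In fluid, where same-numbered libraries were not taken as paired, the block gave 2 sums lower in KO caput fluid (CCG tRF_other -1.28 and TCG tRF_other -1.30), 4 lower in WT corpus against caput, 0 higher in WT cauda against caput, and 1 difference between corpus and cauda. In corpus fluid TCG tRF_3′ (-0.86) lost its call, as it did with the groups alone (-0.92), library size alone (-0.84) and no filter (-1.15). The block moved no other count by over 1.5 times.

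With each library left out in turn, calls lower in KO ranged over 0 to 7 sums in cauda tissue (7 without KO replicate 3), 10 to 24 fragments and 5 to 8 sums in corpus fluid (10 without KO replicate 2, 11 without WT replicate 1, 12 without KO replicate 1, 15 without KO replicate 3), 0 to 5 fragments in cauda fluid (5 without KO replicate 3), and 0 to 27 fragments and 0 to 9 sums in sperm (27 and 9 without WT replicate 4). Between WT segments they ranged over 0 to 2 sums lower from caput to corpus tissue, 0 to 1 higher from caput to cauda tissue (1 without WT caput replicate 3), 2 to 6 higher from caput to corpus fluid, and 1 to 5 lower and 0 to 2 higher from caput to cauda fluid. The differences between corpus and cauda fluid ranged over 0 to 5. Low counts limit TCT-4 tRF_3′ and tRF_other and CCT-3 tRF_5′ in sperm.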

Other observations

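Other rows derived from arginine tRNAs were counted beside the fragments. Of 19 full-length rows, 8 could be tested in tissue, where 0 were called and the median log2 fold change in KO was 0.38 to 0.39 in each segment, while none could be tested in fluid or sperm. None of the 19 antisense rows had enough counts for a test. Rows for tRNA-Arg gene loci numbered 23 in tissue, 17 in fluid and 12 in sperm, of which 22, 7 and 4 were tested. In corpus fluid 3 of the 7 were higher in KO (median over the 7, 1.93 on the log2 scale), with between 30 and 214 summed counts per WT and 66 to 76 per KO library, and the median was 1.91 in caput fluid and -0.42 in cauda fluid with 0 called. Of all features in corpus fluid, 12.0% were higher in KO in the fit of sums and 13.4% in that of single rows. In tissue the medians were 0.39 in the caput, -0.39 in the corpus and 0.78 in the cauda, and in sperm 0.90, with 0 called.

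Over the libraries of each table, the sums of other amino acids whose log2 CPM most resembled the Arg total were His-GTG, Leu-AAG and Gly-TCC tRF_other in tissue (Pearson r = 0.980, 0.961 and 0.954 over 17 libraries, median 0.740 over 135 sums). In fluid they were the tRF_3′ of Lys-CTT, Thr-CGT and Ile-AAT (0.866, 0.850 and 0.836 over 18 libraries, median 0.301 over 134 sums), and in sperm the tRF_3′ of Ser-CGA, Leu-TAA and Tyr-GTA (0.991, 0.986 and 0.979 over 8 libraries, median 0.857 over 133 sums). The points share library depth and scaling, so these values are descriptions.

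The tRF_5′ of TCT-4 were at 3.52, 3.12, 1.58 and 0 CPM in the WT and at 0.177, 0.778, 0.467 and 0.686 CPM in the KO sperm libraries, and its tRF_3′ did not exceed 1.95 CPM in any fluid library.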
